A study of Mus musculus with 8 samples.

Results

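The genes described here make, carry or break down retinoids, and they were followed in hearts with and without a working TLE-binding motif in the transcription factor Tbx20. They were taken by name, as 9 of the 49315 genes in the count tables: *Aldh1a2*, *Aldh1a1* and *Rdh10* for synthesis, *Dhrs3* for the return of retinaldehyde to retinol, *Rbp2*, *Crabp1* and *Crabp2* as carriers, and *Cyp26a1* and *Cyp26b1* for breakdown. RNA was sequenced from whole hearts at embryonic day 9.5, in 4 wild-type libraries and 4 libraries from embryos homozygous for the Tbx20EH1Mut allele, each made from 3 pooled hearts. The allele is a germline change made by CRISPR/Cas9, carried by every cell of the embryo, which replaces a phenylalanine and a serine of the EH1 motif by leucine and isoleucine and so removes the contact of Tbx20 with TLE corepressors. Founder males were mated to C57BL/6J females and the line was back-crossed for at least 3 generations. The sex of the pooled embryos was not given. The mutant hearts were unlooped tubes without chambers from embryos that were smaller than their littermates, so genotype and stage of heart formation cannot be told apart. In addition, a whole heart holds many cell types, and more cells of a type and more RNA per cell cannot be told apart in any value given here.

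Retinoic acid is made from retinol by a pair of oxidations. The first, by retinol dehydrogenases such as Rdh10, gives retinaldehyde, and the second, by retinaldehyde dehydrogenases of the Aldh1a family, gives retinoic acid, while Dhrs3 runs the first step backwards. Small proteins hold these molecules in the cell, retinol in the case of the Rbp members and retinoic acid in the case of the Crabp members, and the Cyp26 enzymes oxidise retinoic acid to inactive products. In the early heart, retinoic acid reaches the venous pole from mesoderm that expresses *Aldh1a2*, and it takes part in setting the posterior border of the second heart field, the progenitor pool beside the heart tube. *Cyp26a1*, *Dhrs3* and *Crabp2* are well known to respond to retinoic acid themselves.

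Libraries held between 33359322 and 49523086 counts assigned to genes. Values are given as CPM, the counts of a gene relative to the TMM-scaled total of its library, and series of values per library follow the order of the replicates, 1 to 4. A gene was called when edgeR's quasi-likelihood test gave an adjusted p of at most 0.05 and the log2 fold change was at least 0.5 in either direction. *Tbx20* itself was present in all libraries, at 353 to 379.6 CPM in wild-type hearts against 215 to 317 CPM in Tbx20EH1Mut hearts, and since the allele is a substitution its level is no check of the genotype. Markers of cardiomyocytes summed to between 26480 and 33310 CPM in wild-type hearts and between 23630 and 34680 CPM in Tbx20EH1Mut hearts, which fits the label of the tissue.

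All 9 members passed the filter on low counts. In Tbx20EH1Mut hearts 7 were called higher, *Aldh1a1* was called lower, and *Crabp2* was not called. The number called higher was 4 without wild-type replicate 3, wild-type replicate 4 or mutant replicate 1. It was 3 with the level of foregut markers, described below, as a second term, and *Aldh1a1* was not called in that fit. Over all 17163 genes tested, 24.6% were called, 12.5% higher and 12.1% lower. The median log2 fold change was 1.35 over the members and 0.0048 over all genes tested. The genotypes did not overlap for 6 members, each higher in all 4 Tbx20EH1Mut libraries than in any wild-type library, and none was lower in this way. These 6 were *Rdh10*, *Dhrs3*, *Rbp2*, *Crabp2*, *Cyp26a1* and *Cyp26b1*. Over all genes tested the genotypes did not overlap for 30.5%, with 14.7% higher and 15.7% lower. The members were chosen with earlier results of these data known. Their contrast with all genes was thus partly fixed in advance and is no test.

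**Figure D1:**
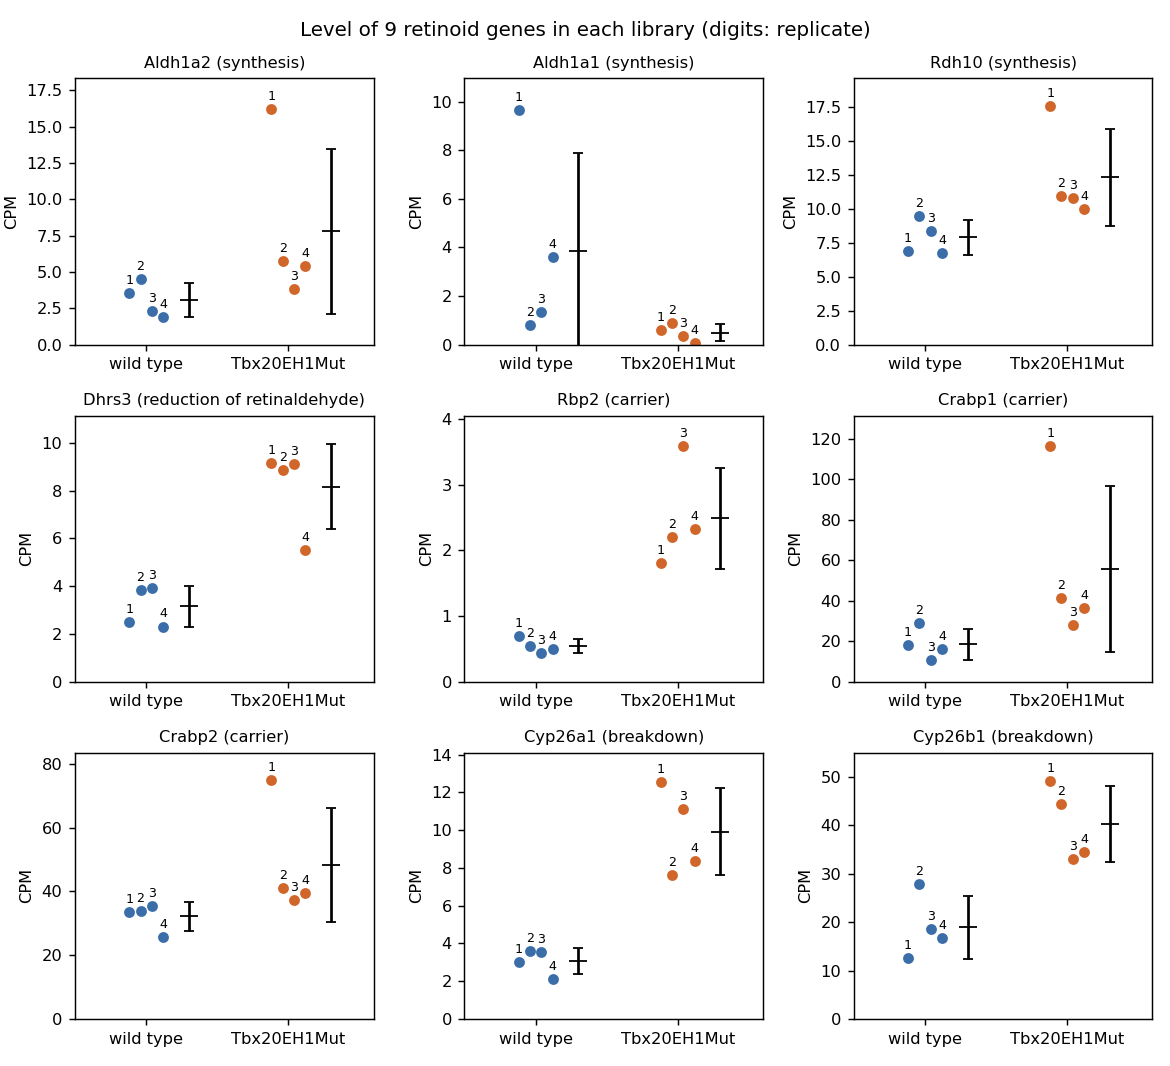
Level of each of the 9 members in every library, in CPM on a linear axis that starts at 0, with 1 point per library, numbered by replicate, and the mean ± SD of each genotype (n = 4). The points of *Dhrs3*, *Rbp2*, *Cyp26a1* and *Cyp26b1* separate the genotypes, as do those of *Rdh10* and *Crabp2* by a narrow margin. Replicate 1 stands above the other Tbx20EH1Mut libraries for *Aldh1a2*, *Rdh10*, *Crabp1* and *Crabp2*. The wild-type SD of *Aldh1a1* is larger than its mean, so that its lower error bar is cut off at 0.

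The breakdown genes were higher in all mutant libraries. *Cyp26a1* (ENSMUSG00000024987; chromosome 19, 37697808 to 37701528, plus strand, GRCm38), whose enzyme clears retinoic acid, stood at 3.004, 3.61, 3.57 and 2.12 CPM in the wild-type libraries and at 12.5, 7.65, 11.1 and 8.35 CPM in the Tbx20EH1Mut libraries. The lowest mutant library was above the highest wild-type library by more than the whole range of the wild-type values. The mean went from 3.07 ± 0.694 to 9.92 ± 2.30 CPM (SD, n = 4 each). On the log2 scale the fold change was 1.69 ± 0.237 (standard error, SE; edgeR's quasi-likelihood test, adjusted p = 0.00115). The exact permutation p of the difference in means, two-sided, was 0.0286, the smallest that 4 against 4 libraries allow.

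*Cyp26b1* (ENSMUSG00000063415; chromosome 6, 84571414 to 84593908, minus strand, GRCm38), the second Cyp26 enzyme, had the higher CPM of the pair, which is not corrected for its longer exons. It was at 12.6, 28.0, 18.6 and 16.6 CPM in the wild-type libraries and at 49.1, 44.5, 33.1 and 34.5 CPM in the mutant replicates. All mutant libraries exceeded all wild-type libraries, although wild-type replicate 2 came near to mutant replicate 3. Its log2 fold change was 1.09 ± 0.234 (SE; edgeR's quasi-likelihood test, adjusted p = 0.00822). With the level of foregut markers as a second term it was 0.53 and not called (adjusted p = 0.145, same test).

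Per kilobase of exon, the sum of both Cyp26 genes was 4.04, 7.26, 5.49 and 4.30 RPKM in the wild-type replicates and 16.3, 12.6, 12.5 and 11.2 RPKM in the mutant replicates. The sums did not overlap. *Cyp26a1* made up between 27.8% and 41.9% of this sum in wild-type hearts and between 34.2% and 50.4% in mutant hearts, so its share overlapped between genotypes while the levels of both genes did not.

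*Cyp26c1* lies beside *Cyp26a1* on chromosome 19 (37685581 to 37693398, plus strand) and codes for another enzyme of the family. It was low and uneven, with 2 to 33 counts per library in wild-type hearts and 1 to 70 counts in Tbx20EH1Mut hearts. The means were 0.237 ± 0.293 CPM in wild-type hearts against 1.05 ± 0.873 CPM in Tbx20EH1Mut hearts. The groups overlapped, since mutant replicate 3 had only 0.0313 CPM and wild-type replicate 2 had 0.672 CPM. It was not called, at a log2 fold change of 2.11 ± 0.995 (SE; edgeR's quasi-likelihood test, adjusted p = 0.132).

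The sequence before the *Cyp26a1* start is shown because its gene had the lowest adjusted p of the members, and that of *Rbp2* because its gene had the largest rise. Both are RefSeq windows of 250 bases on GRCm38.p6, read in the direction of the gene, and the capitals mark AGGTCA or AGTTCA, the half-site that retinoic acid receptors bind, on either strand.
Cyp26a1, chr19:37697558-37697807, plus strand: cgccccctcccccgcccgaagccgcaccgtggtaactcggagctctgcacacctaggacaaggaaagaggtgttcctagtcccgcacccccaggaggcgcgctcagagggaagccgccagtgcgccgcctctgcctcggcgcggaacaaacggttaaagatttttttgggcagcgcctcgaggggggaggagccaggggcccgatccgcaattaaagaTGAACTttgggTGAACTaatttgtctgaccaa
Rbp2, chr9:98490287-98490536, plus strand: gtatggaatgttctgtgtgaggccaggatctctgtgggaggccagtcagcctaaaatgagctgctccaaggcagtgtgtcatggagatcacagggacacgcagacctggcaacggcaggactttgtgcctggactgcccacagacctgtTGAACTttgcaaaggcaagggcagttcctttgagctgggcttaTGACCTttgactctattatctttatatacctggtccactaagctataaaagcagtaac

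In the *Cyp26a1* window the half-sites form a direct repeat spaced by 5 bases, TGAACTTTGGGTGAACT on the plus strand and thus AGTTCA on the minus strand in both parts, which begins at -32 from the start site. The 4 half-sites allowed in either part were AGGTCA and AGTTCA, and GGGTCA and GGTTCA. On either strand such a repeat was found in 29 of 32851 RefSeq windows of the mouse, each the 250 bases before a start site (0.0883%). The last 10 bases of the *Cyp26a1* window lie in an exon of GENCODE M21. In the *Rbp2* window the single half-sites begin at -101 and -58, and 24.2% of all windows hold at least 1 such half-site. The *Rbp2* window lies inside the longer gene model of the count tables, which starts upstream of it, and overlaps none of its exons.

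The letters AGGTGT, the core of the T-box motif, were present on the minus strand at -202 and on the plus strand at -183 in the *Cyp26a1* window, on the minus strand at -12 in that of *Aldh1a2*, and in both windows of *Aldh1a1*, and 11.8% of all windows hold them. The longer AGGTGTGA, which includes AGGTGT, occurred in 1 *Aldh1a1* window, at -192 on the minus strand, and in 1.12% of all windows. That *Aldh1a1* window, at 20492333 to 20492582 on chromosome 19, lies far upstream of the gene model of the count tables, which starts at 20601961. A match of letters is a description of the sequence and no evidence of binding. Promoter windows were matched for 7 of the 9 members, all but *Rdh10* and *Crabp2*.

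*Dhrs3* (ENSMUSG00000066026; chromosome 4, 144892827 to 144928209, plus strand), whose product reduces retinaldehyde and so lowers the supply to the Aldh1a enzymes, was at 2.52, 3.83, 3.94 and 2.31 CPM in the wild-type libraries. In the mutant replicates it was at 9.14, 8.87, 9.13 and 5.51 CPM. Replicates 1 to 3 of the mutant lay close together with replicate 4 below them, and none reached down to a wild-type value. The log2 fold change was 1.37 ± 0.252 (SE; edgeR's quasi-likelihood test, adjusted p = 0.00393).

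Among the carriers, *Rbp2* had the largest rise of the members and the lowest level in wild-type hearts. *Rbp2* (ENSMUSG00000032454; chromosome 9, 98486115 to 98509781, plus strand) codes for a cellular retinol-binding protein known best from the absorptive cells of the intestine. It was at 0.698, 0.550, 0.438 and 0.502 CPM in the wild-type libraries, from 22 to 27 counts per library. In the Tbx20EH1Mut libraries it was at 1.81, 2.20, 3.60 and 2.33 CPM, from 70 to 115 counts. All mutant libraries were above all wild-type libraries, and the order among the mutants, with replicate 3 highest and replicate 1 lowest, was the opposite of that of *Crabp1*. *Rbp2* thus had a log2 fold change of 2.18 ± 0.316 (SE; edgeR's quasi-likelihood test, adjusted p = 0.00132).

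*Crabp1* and *Crabp2* code for the proteins that bind retinoic acid in the cell. *Crabp1* (ENSMUSG00000032291; chromosome 9, 54764748 to 54773110, plus strand) was at 18.4, 28.8, 10.6 and 15.99 CPM in the wild-type libraries and at 116.5, 41.4, 27.9 and 36.4 CPM in the mutant replicates. Mutant replicate 1 stood far above the other libraries, and mutant replicate 3 was below wild-type replicate 2, so the groups overlapped. Its log2 fold change was 1.59 ± 0.453 (SE; edgeR's quasi-likelihood test, adjusted p = 0.0264; exact permutation p = 0.0571). Without mutant replicate 1 the log2 fold change of *Crabp1* was 0.94 (adjusted p = 0.0503, edgeR's quasi-likelihood test), and the call was also lost without wild-type replicate 3 (adjusted p = 0.0747) or wild-type replicate 4 (adjusted p = 0.0741).

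*Crabp2* (ENSMUSG00000004885; chromosome 3, 87948666 to 87953376, plus strand), which delivers retinoic acid to its nuclear receptors, was at 33.5, 33.8, 35.6 and 25.6 CPM in wild-type hearts and at 74.9, 41.2, 37.3 and 39.5 CPM in the mutant libraries. No mutant library was below a wild-type library, but mutant replicate 3 exceeded wild-type replicate 3 by little and the mutant mean rested on replicate 1. It was not called, at a log2 fold change of 0.59 ± 0.223 (SE; edgeR's quasi-likelihood test, adjusted p = 0.0713). It was 0.30 (adjusted p = 0.136, same test) without mutant replicate 1. Of the 8 fits with 1 library left out it was called in the fit without mutant replicate 3, at 0.70 (adjusted p = 0.0489, same test), and with all libraries it was called under upper-quartile scaling, at 0.67 (adjusted p = 0.0476, same test). Since its groups did not overlap, the exact permutation p of *Crabp2* was 0.0286, the same as for *Cyp26a1*, although its fold change was smaller and its mutant libraries were more spread.

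**Figure D2:**
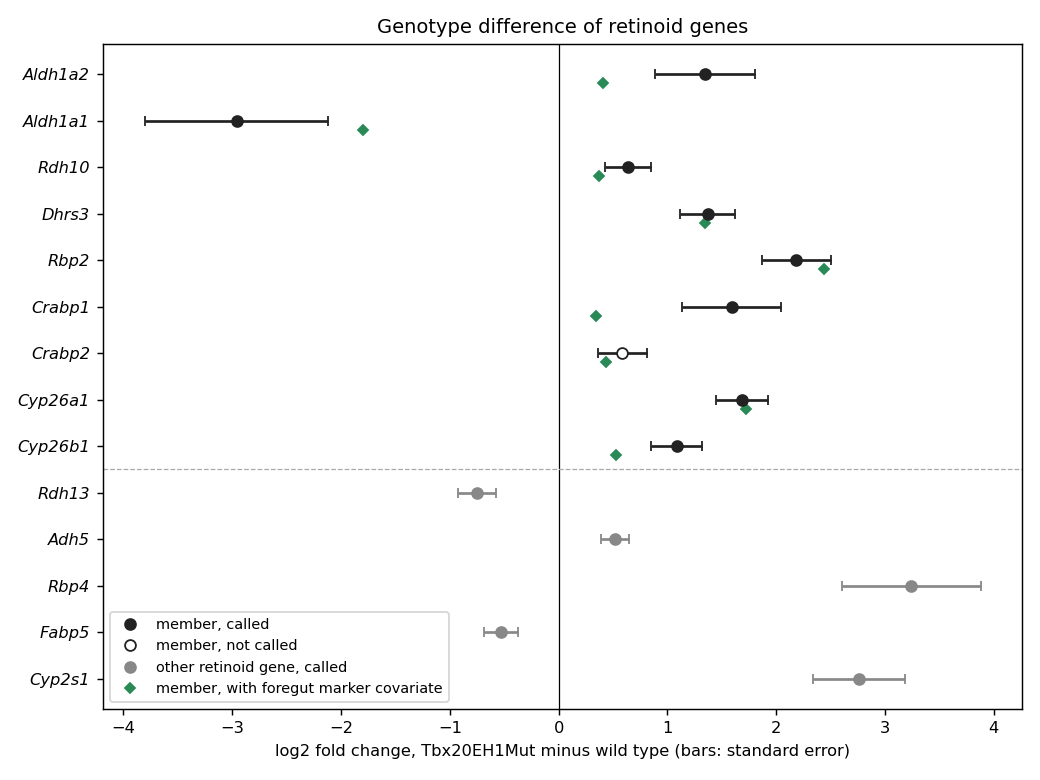
Log2 fold change, mutant minus wild-type, of the 9 members (black circles, open where not called) and of the 5 other retinoid genes that were called (grey circles), with standard errors as bars, and of the members with the foregut marker level as a second term (green diamonds). *Rbp2* is the highest of the members at 2.18 and *Aldh1a1* the lowest at -2.96, with the widest bar, and the diamonds lie closest to 0 for *Crabp1*, *Rdh10*, *Aldh1a2* and *Crabp2*.

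The synthesis genes did not move together. *Rdh10* (ENSMUSG00000025921; chromosome 1, 16105774 to 16133734, plus strand), the main embryonic retinol dehydrogenase, was at 6.92, 9.51, 8.41 and 6.76 CPM in wild-type hearts and at 17.6, 10.9, 10.8 and 9.97 CPM in the mutant libraries. The groups did not overlap, but only replicate 1 of the mutant stood clear of the wild-type range and the others were just above it. The log2 fold change was 0.64 ± 0.212 (SE; edgeR's quasi-likelihood test, adjusted p = 0.0449).

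This call for *Rdh10* was kept without wild-type replicate 2 or mutant replicate 3. It was lost without wild-type replicate 1, 3 or 4 (adjusted p = 0.0729, 0.0913 and 0.128, edgeR's quasi-likelihood test) and without mutant replicate 1, 2 or 4 (adjusted p = 0.100, 0.0582 and 0.0558, same test). The log2 fold change in these fits was between 0.43, without mutant replicate 1, and 0.75, without wild-type replicate 2.

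*Aldh1a2* (ENSMUSG00000013584; chromosome 9, 71215789 to 71296243, plus strand), which makes most of the retinoic acid of the early embryo, was at 3.55, 4.52, 2.33 and 1.88 CPM in the wild-type libraries. The mutant replicates were at 16.2, 5.74, 3.81 and 5.43 CPM. Mutant replicate 1 stood far above the other libraries, and mutant replicate 3 was below wild-type replicate 2. The mutant mean of 7.81 ± 5.69 CPM was thus above 3 of the 4 mutant libraries. For *Aldh1a2* the log2 fold change was 1.35 ± 0.459 (SE; edgeR's quasi-likelihood test, adjusted p = 0.0498; exact permutation p = 0.0571).

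Without mutant replicate 1 the log2 fold change of *Aldh1a2* was 0.71 (adjusted p = 0.141, edgeR's quasi-likelihood test). The call was also lost without wild-type replicate 1, 3 or 4 (adjusted p = 0.0552, 0.126 and 0.130, same test) and without mutant replicate 2 or 4 (adjusted p = 0.0573 and 0.0693, same test). It was kept without wild-type replicate 2 and without mutant replicate 3, the pair of libraries that overlapped.

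*Aldh1a1* (ENSMUSG00000053279; chromosome 19, 20601961 to 20643462, plus strand), a second retinaldehyde dehydrogenase, went the other way. It was at 9.65, 0.794, 1.36 and 3.60 CPM in the wild-type libraries, from 39 to 318 counts. In the mutant libraries it was at 0.622, 0.903, 0.344 and 0.0795 CPM, from 3 to 34 counts. Wild-type replicate 1 stood far above the rest and wild-type replicate 2 was below mutant replicate 2. The log2 fold change was -2.96 ± 0.845 (SE; edgeR's quasi-likelihood test, adjusted p = 0.0265; exact permutation p = 0.0571).

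The call for *Aldh1a1* was lost without wild-type replicate 1 or 4, where the log2 fold change was -1.97 and -2.99 (adjusted p = 0.0511 and 0.0542, edgeR's quasi-likelihood test). It was also lost without mutant replicate 1, 3 or 4 (adjusted p = 0.0551, 0.0590 and 0.0652, same test). *Aldh1a7*, a close copy of *Aldh1a1* on the same chromosome (20692953 to 20727562, minus strand), was at 0.2198 ± 0.0978 CPM in wild-type hearts against 0.501 ± 0.548 CPM in mutant hearts and was not called (adjusted p = 0.289, same test). How reads that fit both copies were counted was not given, so the division between them is uncertain.

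**Figure D3:**
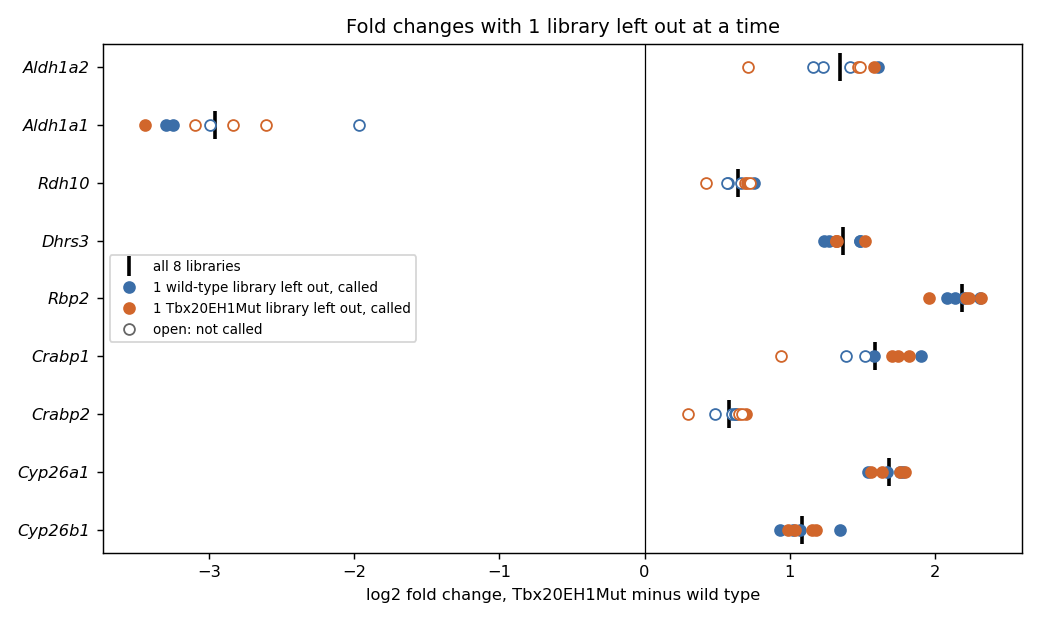
Log2 fold change of each member with all 8 libraries and with each library left out in turn, filled where the gene was called. Bars mark the fit with all libraries. *Cyp26a1*, *Cyp26b1*, *Dhrs3* and *Rbp2* were called in all 8 of these fits, whereas *Aldh1a2* and *Rdh10* each lost the call in 6 of them and fell to 0.71 and 0.43 without mutant replicate 1.

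Levels of different members were compared per kilobase of exon (RPKM). In wild-type hearts *Crabp2* (24.3 ± 3.35 RPKM) and *Crabp1* (23.0 ± 9.55) stood first, with ranges that overlapped. *Cyp26b1* followed at 3.54 ± 1.22 RPKM. *Rdh10* (1.90 ± 0.314), *Aldh1a1* (1.88 ± 1.97), *Cyp26a1* (1.73 ± 0.392), *Aldh1a2* (1.36 ± 0.529) and *Dhrs3* (1.077 ± 0.292) came next, and each overlapped its neighbours among these genes. The highest library of *Rdh10*, at 2.29 RPKM, was below the lowest of *Cyp26b1*, at 2.35 RPKM. *Rbp2* had the lowest mean, 0.569 ± 0.115 RPKM, and its highest library, at 0.726, was below the lowest of *Dhrs3*, at 0.790. This order is one of means, since *Aldh1a1* ran from 0.387 RPKM, below all wild-type libraries of *Rbp2*, to 4.70 RPKM, within the range of *Cyp26b1*.

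In Tbx20EH1Mut hearts *Crabp1* (69.3 ± 51.1 RPKM) and *Crabp2* (36.5 ± 13.5) were again first, with overlap. *Cyp26b1* (7.53 ± 1.45 RPKM) and *Cyp26a1* (5.59 ± 1.30) came next and overlapped, followed by *Aldh1a2* (3.45 ± 2.51), *Rdh10* (2.96 ± 0.853), *Dhrs3* (2.79 ± 0.605) and *Rbp2* (2.58 ± 0.802), which overlapped one another, and mutant replicate 1 of *Aldh1a2* lay above all mutant libraries of *Cyp26a1* and within the range of *Cyp26b1*. *Aldh1a1* was last, at 0.237 ± 0.173 RPKM, and its highest mutant library, at 0.440, was below the lowest of *Rbp2*, at 1.89.

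**Figure D4:**
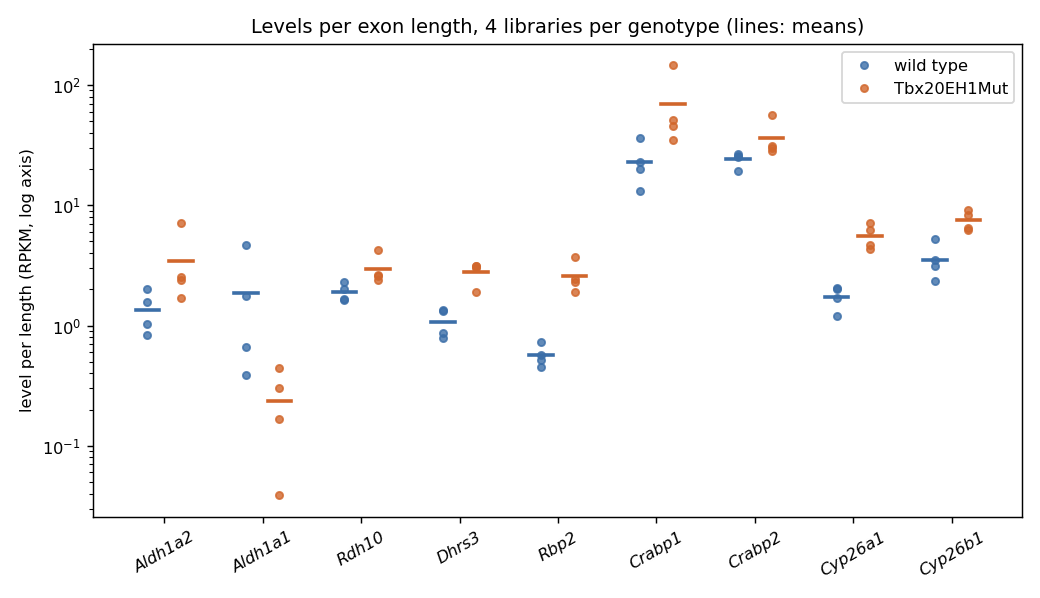
Level of each member per kilobase of exon in each library, in RPKM on a log axis, for wild-type and Tbx20EH1Mut hearts, with lines at the means. Both Crabp genes lie highest in both genotypes, and *Aldh1a1* spreads from 0.0387 to 4.70 RPKM over the 8 libraries.

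The sum of *Aldh1a2* and *Aldh1a1* did not separate the genotypes, nor did either gene alone. Together they were at 6.27, 2.38, 1.69 and 2.58 RPKM in the wild-type libraries and at 7.48, 2.97, 1.85 and 2.44 RPKM in the mutant libraries. The groups overlapped. *Aldh1a1* made up 75.0%, 16.2%, 39.1% and 67.9% of this sum in the wild-type replicates and 4.05%, 14.8%, 9.04% and 1.59% in the mutant replicates, and these shares did not overlap.

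The sum of the Cyp26 genes divided by the sum of the Aldh1a genes was 0.645, 3.05, 3.25 and 1.67 in the wild-type and 2.17, 4.24, 6.73 and 4.58 in the mutant replicates. The ratio was higher in 3 mutant libraries than in any wild-type library, and mutant replicate 1, where *Aldh1a2* was highest, fell within the wild-type range. The Crabp sum was 48.3, 61.5, 40.1 and 39.3 RPKM in wild-type and 202, 82.8, 63.0 and 75.3 RPKM in mutant libraries, without overlap, and mutant replicate 3 was only just above wild-type replicate 2.

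Deviations of each library from the mean log2 CPM of its genotype were compared between members, as a description over 8 libraries that share their depth and tissue sampling. *Aldh1a2* varied most closely with *Crabp1* (Pearson r = 0.93), *Crabp2* (r = 0.89) and *Rdh10* (r = 0.83), the genes for which mutant replicate 1 stood apart. *Cyp26a1* varied with *Rdh10* (r = 0.74) and *Dhrs3* (r = 0.70) and less with *Cyp26b1* (r = 0.35). *Rbp2* ran against *Cyp26b1* (r = -0.56), *Crabp2* (r = -0.54), *Rdh10* (r = -0.53) and *Aldh1a2* (r = -0.42).

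Of 10465 genes whose mean reached 5 CPM, those with deviations most like *Aldh1a2* were *Kif15* (r = 0.99), *Prkcsh* (r = 0.98), *Pitpnc1* (r = 0.98), *Pask* (r = 0.97) and *Tmem39b* (r = 0.93). For *Rbp2* they were *Sparc* (r = 0.98), *Efr3a* (r = 0.96), *Dusp8* (r = 0.96), *Rgs17* (r = 0.96) and *Med19* (r = 0.96). For *Cyp26a1* they were *Fam171b* (r = 0.91), *Crtc3* (r = 0.90), *Mphosph10* (r = 0.90), *Lmbr1l* (r = 0.88) and *Tbp* (r = 0.87). All of these r are over 8 libraries and are the highest of 10465, so high values follow from the choice alone. Members with a mean below 5 CPM, such as *Rbp2* and *Aldh1a1*, could not appear among them. None of the genes listed is among the members or the other retinoid genes considered. However, *Crabp1* was nearly as close to *Aldh1a2* (r = 0.93) as *Tmem39b* was.

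Of 35 other genes of retinoid uptake, storage, synthesis and breakdown, 19 passed the filter on low counts, and 3 were called higher, 2 were called lower and 14 were not called. The share called was thus 26.3%, near the 24.6% of all genes tested. Their median log2 fold change was 0.48. *Rbp4*, the retinol carrier of serum, rose from 0.966 ± 0.510 to 9.01 ± 8.66 CPM, with 21.8 CPM in mutant replicate 2 (3.24 ± 0.639 on the log2 scale, standard error, adjusted p = 0.0054, edgeR's quasi-likelihood test). *Cyp2s1*, which codes for another P450 enzyme reported to act on retinoic acid, rose from 0.463 ± 0.196 to 3.11 ± 1.29 CPM (2.76 ± 0.419 on the log2 scale, standard error). *Adh5* rose by 0.52 on the log2 scale, just past the threshold. *Rdh13*, a mitochondrial member of the retinol dehydrogenase family, was called lower at -0.75, and *Fabp5*, a fatty acid carrier that also binds retinoic acid, at -0.53. The genotypes separated without overlap for all 5 of these genes, and for 8 of the 19 tested (42.1%), against 30.5% of all genes tested.

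Markers of tissues next to the heart also differed between libraries. All 8 markers of foregut epithelium were tested, 3 were called higher, and none was at 0 in any library. They summed to 3.25, 61.5, 1.16 and 11.5 CPM over the wild-type libraries and to 206, 173, 32.7 and 93.6 CPM in the mutant libraries, with *Epcam*, *Cldn6* and *Shh* the most abundant by mean over all 8 libraries. Wild-type replicate 2 therefore held more of them than mutant replicate 3. In these 2 libraries *Dhrs3* was at 3.83 and 9.13 CPM, *Rbp2* at 0.550 and 3.60 CPM, *Cyp26a1* at 3.61 and 11.1 CPM and *Cyp26b1* at 28.0 and 33.1 CPM, so these 4 members were higher in the mutant library with the lower foregut sum. *Rdh10*, at 9.51 and 10.8 CPM, and *Crabp2*, at 33.8 and 37.3 CPM, were also higher there. *Aldh1a2*, at 4.52 and 3.81 CPM, *Crabp1*, at 28.8 and 27.9 CPM, and *Aldh1a1*, at 0.794 and 0.344 CPM, were higher in the wild-type library instead.

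With the mean log2 level of the foregut markers as a second term in the fit, *Cyp26a1* (log2 fold change 1.72, adjusted p = 0.0064, edgeR's quasi-likelihood test), *Dhrs3* (1.35, adjusted p = 0.0233) and *Rbp2* (2.44, adjusted p = 0.00518) were still called. *Cyp26b1* (0.53, adjusted p = 0.145), *Aldh1a2* (0.41, adjusted p = 0.668), *Crabp1* (0.34, adjusted p = 0.658), *Rdh10* (0.37, adjusted p = 0.393) and *Aldh1a1* (-1.80, adjusted p = 0.388) were not called by the same test, nor was *Crabp2* (0.44, adjusted p = 0.370). Over all genes tested, that fit called 2701 higher and 2948 lower, more than the 2148 and 2070 without the second term. The foregut level was itself higher in mutant hearts, at 1.61 to 4.21 on the log2 scale against -3.31 to 2.32 in wild-type hearts. These ranges overlapped only through wild-type replicate 2 and mutant replicate 3. Calls kept or lost in that fit therefore cannot separate foregut level from genotype. Without wild-type replicate 2 and mutant replicates 1 and 2, the libraries with the highest foregut sums in their genotypes, 5 members were called higher. This choice was made after the values had been seen. *Cyp26b1* was among these 5 at 1.09 (adjusted p = 0.0083, same test), as was *Crabp1* at 1.11 (adjusted p = 0.0195, same test). *Aldh1a1* was called lower at -4.54 (adjusted p = 0.0221, same test), while *Aldh1a2* (0.85, adjusted p = 0.116, same test) and *Rdh10* (0.50, adjusted p = 0.0857, same test) were not called. The libraries kept had foregut sums of 3.25, 1.16 and 11.5 CPM in wild-type hearts and 32.7 and 93.6 CPM in mutant hearts. These sums did not overlap, so foregut level and genotype cannot be told apart in this fit.

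**Figure D5:**
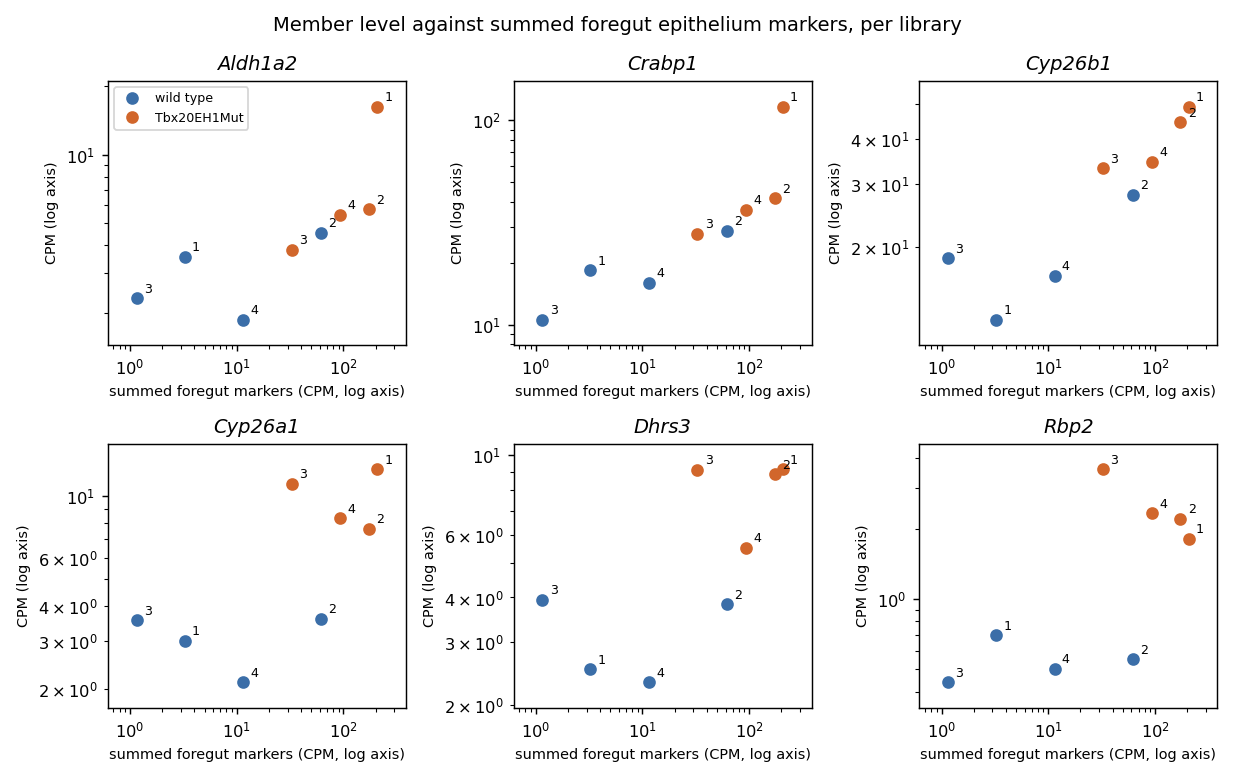
Level of 6 members in CPM against the summed CPM of 8 foregut epithelium markers, both on log axes, with 1 point per library, numbered by replicate. The wild-type sum reaches 61.5 CPM in replicate 2, above the 32.7 CPM of mutant replicate 3. For *Dhrs3*, *Rbp2*, *Cyp26a1* and *Cyp26b1* mutant replicate 3 is the higher of these libraries.

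The part of other tissues in the members' levels was not tested. Of 6 markers of the posterior second heart field, where *Aldh1a2* is normally expressed, 4 were called higher and *Wnt2* was called lower, and their sum was 83.0 to 128 CPM in wild-type hearts against 138.5 to 251.6 CPM in mutant hearts. By mean over all libraries the most abundant were *Wnt2*, at 55.7 to 82.3 CPM in wild-type and 18.5 to 29.2 CPM in mutant hearts, and *Isl1*, which marks the whole second heart field and was at 12.5 to 26.1 CPM in wild-type and 77.9 to 170.8 CPM in mutant hearts. Without *Isl1* the sums overlapped, at 67.1 to 103 CPM and 60.5 to 149.8 CPM, while *Hoxb1*, *Osr1* and *Foxf1* were each called higher without overlap. Of 6 markers of proepicardium and epicardium, which also express Aldh1a genes, 5 were tested and *Wt1* was called higher. Their sum was 54.1 to 174 CPM in wild-type hearts against 117 to 159.6 CPM in mutant hearts, with *Msln* at 0 in some libraries, and the highest value was in wild-type replicate 1, which also had the most *Aldh1a1*. Mutant replicate 2 came next in that sum, at 159.6 CPM, and had 0.903 CPM of *Aldh1a1*.

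All 6 erythroid markers were called lower, and their sum was 1758 to 4596 CPM in wild-type hearts against 319 to 1025 CPM in mutant hearts. Wild-type replicates 1 and 2, with 9.65 and 0.794 CPM of *Aldh1a1*, had similar erythroid sums of 1880 and 1758 CPM. These libraries were picked after their values were seen, and the part of red cells in *Aldh1a1* was not tested. Markers of hepatic and visceral endoderm, where *Rbp4* and *Rbp2* can be expressed, summed to 1.28 to 9.37 CPM in wild-type hearts against 2.76 to 148 CPM in mutant hearts, with 1 of 5 tested markers called higher and 3 of the 7 at 0 in at least 1 library. The 148 CPM was in mutant replicate 2, as was the highest *Rbp4*, whereas *Rbp2* was highest in mutant replicate 3, where that sum was 5.31 CPM. Of the somite markers, 1 of 5 tested was called higher, with sums of 2.19 to 11.3 CPM against 3.78 to 24.2 CPM and *Uncx* at 0 throughout, and the highest sum was in mutant replicate 1, as it was for *Aldh1a2* and *Crabp1*.

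Markers of endothelium and endocardium summed to 642 to 827 CPM in wild-type hearts against 833 to 913 CPM in mutant hearts, without overlap, and 3 of 8 were called higher, with none at 0. For the neural tube 2 of 6 tested markers were called higher, with sums of 7.65 to 14.3 CPM and 14.0 to 18.2 CPM that overlapped and 4 of the 8 markers at 0 in at least 1 library. For the neural crest 1 of 3 tested was called higher, with overlapping sums of 13.4 to 20.2 CPM and 15.8 to 23.2 CPM and 4 of the 6 at 0 in at least 1 library.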

How the data were processed

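RNA-seq was made by the authors from pools of 3 hearts per library, as paired-end reads of poly-A RNA. Per the labels and the submitters' processing notes, reads were trimmed with Trimmomatic 0.36 and aligned with STAR 2.5.2b to GRCm38. The counter, its treatment of strand and of reads that fit several genes are not given in the sources used here. The deposited values are raw counts per gene, 1 table per library, with 33359322 to 49523086 counts per library. Counts of all pairs of libraries of 1 genotype differed beyond sampling noise, and each was used as a separate pool.

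Genes were named through GENCODE M21 on GRCm38, which held 48970 of 49315 identifiers and gave 91.4% of them the same start and end, and coordinates are those of the deposited tables. No member shares exon bases with another gene. Counts were filtered with filterByExpr, scaled by TMM and tested with edgeR 4.0.16 (glmQLFit and glmQLFTest, R 4.3.3) with genotype as the only term and Benjamini-Hochberg adjustment over 17163 genes. CPM and RPKM (per kilobase of the exon length in the tables) were computed from the same scaled library sizes, and log2 CPM used a prior count of 0.5. Single values were compared by an exact two-sided permutation test over 70 arrangements. On simulated counts for this comparison (17340 genes), the fit called 45.7% of 94 genes changed by 1 on the log2 scale and 97.9% of 96 genes changed by 2, with 3.52% false calls. The simulation changed far fewer genes than were called in the data and gave every gene the same dispersion (0.0707). These rates therefore need not hold for the real counts. Promoters were taken from RefSeq (GRCm38.p6) and searched on both strands.

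The members and all lists were chosen with earlier results of these data known. Named genes were the members, other retinoid genes that were called, the neighbouring *Cyp26c1*, the copy *Aldh1a7*, *Tbx20*, the 5 genes most alike in deviations to *Aldh1a2*, *Rbp2* and *Cyp26a1*, and at most 3 of a marker list by level. A few marker genes were also named for their call or for being at 0, which was chosen after their values were seen. Alternatives were other filters, scalings and tests (DESeq2 1.42.0, limma-voom 3.58.1), a replicate block, the foregut covariate and leaving out each library. 1 gene of the wider retinoid list and 1 of the other lists are not reported here and are left out of the counts.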

Additional observations from a re-analysis of the deposited data

Results flagged for a closer look

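Within each genotype, the highest or lowest of the 4 libraries was compared with the others for each member by Dixon's ratio, the gap to the nearest library divided by the range, against its critical value at 95%. Of 18 groups, 5 exceeded it, all in Tbx20EH1Mut hearts, and chance exceeds it in about 1 of 20 groups. Replicate 1 was the high library for *Aldh1a2* (ratio 0.845), *Rdh10* (0.872), *Crabp1* (0.847) and *Crabp2* (0.896). These members share that library and varied together across libraries, so they are not separate observations to set against the chance rate. Replicate 4 was the low library for *Dhrs3* (0.925), at 5.51 CPM against 8.87 to 9.14 CPM in the other 3.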

How the results depend on the processing

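No log2 fold change of a member changed sign under any alternative. *Cyp26a1*, *Dhrs3* and *Rbp2* were called in all 9 alternatives with all libraries, in all 8 fits with 1 library left out and without 3 libraries, and *Cyp26b1* lost its call only with the foregut covariate. Members called higher numbered 7 as reported, 3 with the foregut covariate, 8 with upper-quartile scaling, where *Crabp2* was called, and between 4 and 8 with each library left out, with 4 without wild-type replicate 3, wild-type replicate 4 or mutant replicate 1. Members called lower numbered 1 as reported and 0 with at least 10 counts in every library, where *Aldh1a1* was not tested, with limma-voom, with the foregut covariate and with the replicate block, and between 0 and 1 with each library left out. With limma-voom *Aldh1a2* was not called (1.23, adjusted p = 0.0655), nor with library size alone (1.32, adjusted p = 0.0678, edgeR's quasi-likelihood test). *Rdh10* was not called with library size alone (0.59, adjusted p = 0.0890, same test) or with no filter on low counts (0.63, adjusted p = 0.0567, same test). The adjusted p of *Aldh1a2* was between 0.0097 and 0.668 over the 9 alternatives with all libraries, that of *Aldh1a1* between 0.0092 and 0.388 over the 8 that tested it and that of *Rdh10* between 0.0227 and 0.393. That of *Cyp26a1* was at most 0.0064. The causes were not tested.

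Other retinoid genes called higher numbered 3 as reported, 6 with DESeq2 and between 2 and 5 with each library left out (5 without wild-type replicate 1, 2 without wild-type replicate 4), and those called lower numbered 2, 1 with upper-quartile scaling, 1 with the foregut covariate and between 1 and 2 with each library left out. Over all genes, 2148 were called higher and 2070 lower, between 1375 and 2948 and between 1376 and 2719 with each library left out. The higher calls numbered 1375 without wild-type replicate 3 and 1382 without wild-type replicate 4, and the lower calls 1376 without mutant replicate 4. With upper-quartile scaling the calls were 2516 and 1566, and with the foregut covariate 2701 and 2948.

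The genotypes share replicate numbers, but same-numbered libraries deviated together with r of -0.248, 0.318, 0.044 and 0.059 over 17163 genes. Not every library was most like its own number, and the numbers were not used as pairs in the main fit. Whether they mark a shared litter or day was not given, and these r cannot exclude it. With the replicate number as a block, 1910 genes were called higher and 1771 lower, with 6 members higher and 0 lower. *Rdh10* (0.61, adjusted p = 0.0806) and *Aldh1a1* (-2.69, adjusted p = 0.0595) were then not called by edgeR's quasi-likelihood test.

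Depth limits *Rbp2* (22 counts in the lowest library), *Aldh1a1* (3) and *Cyp26c1*. The 4 libraries per genotype allow no exact permutation p below 0.0286, and genes that changed by 1 on the log2 scale were often missed on simulated counts. Rates on simulated counts need not hold for the real ones.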

Other observations

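Of 14 genes known to respond to retinoic acid, 11 were tested, 8 were called higher and *Tgm2* was called lower. Those called higher included *Hoxb1*, *Hoxb2*, *Hoxb4* and *Hoxb5*, of the same gene cluster, so the calls are not all separate observations. *Hoxb1* was also counted among the posterior second heart field markers, and *Rarb* among the receptors below. Over all genes tested, 12.5% were called higher and 12.1% lower. The median log2 fold change was 1.06 over the responsive genes against 0.0048 over all genes tested. This list too was chosen with earlier results of these data known, so the contrast is no test. The part of other tissues in these levels was not tested. *Hoxb4* rose from 4.88 ± 1.18 to 31.9 ± 5.86 CPM, *Hoxa2* from 1.24 ± 0.738 to 8.46 ± 2.55 CPM and *Meis2* from 98.0 ± 14.5 to 204.7 ± 12.1 CPM, each without overlap, while *Meis1* stood at 79.8 ± 12.7 and 78.2 ± 7.99 CPM. *Tgm2*, a transglutaminase, fell from 158.8 ± 32.5 to 76.6 ± 14.0 CPM. These were named after their values were seen. Of the 6 receptors of retinoids, *Rarb*, which is itself induced by retinoic acid, was called higher (17.0 ± 3.43 to 26.8 ± 4.93 CPM, log2 fold change 0.65, adjusted p = 0.0224, edgeR's quasi-likelihood test), with overlap between the genotypes, and the other 5 were not called.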
